A study of Mus musculus with 8 samples.

Results

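The constitutive proteasome subunit genes are 40 of the 12393 mouse genes on these arrays. They were chosen by name: genes whose probe sets carry a single symbol starting with Psma, Psmb, Psmc, Psmd or Psmg, without the inducible subunits Psmb8, Psmb9 and Psmb10. By role they comprise 8 subunits of the alpha ring, 3 catalytic and 4 other subunits of the beta rings, 6 ATPases and 3 other subunits of the regulatory particle's base, 8 subunits of its lid and 7 assembly chaperones. The remaining member, Psmc3ip, is not a subunit: it encodes a partner of Psmc3 that acts in meiotic recombination. Each gene was read from its brightest probe set, as a log2 value per array. The 39 members with a mean of at least 6.87, the level filter, were tested. Psma8, an alpha subunit of the testis, read 5.03 to 5.37 and was not tested.

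RNA came from cytotoxic CD8 T cells of 4 OT-1 mice, named A to D, whose T cells share 1 transgenic receptor for an ovalbumin peptide. Activated T cells were mixed with ID8 mouse ovarian cancer cells carrying that peptide in a ratio of 30 to 1 and were recovered with magnets after 4 h. The cells of each mouse were divided between targets overexpressing PD-L1, which engages the checkpoint receptor PD-1 on T cells, and targets depleted of it, which gave 4 arrays per group. PD-L1 was altered in the targets only, and age, sex and strain background of the mice are not given in the sources used here. No array of T cells without targets, or with unmodified ID8 cells, was used here.

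The proteasome degrades proteins that carry ubiquitin chains. Its 20S core is a stack of alpha and beta rings, and the beta subunits Psmb5, Psmb6 and Psmb7 hold the cutting sites. The 19S particle binds the core: its ATPases unfold the substrate, and its lid removes the ubiquitin. In lymphocytes, and in most cells under interferon gamma, the inducible subunits Psmb8, Psmb9 and Psmb10 take the places of Psmb5, Psmb6 and Psmb7 in newly built cores, which changes the peptides made for presentation on MHC class I.

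Promoter sequence was matched for 32 of the 40 members, as 34 windows from RefSeq on GRCm38.p6 that run from 250 bases before to 50 bases after a gene's start. Psma8, Psmb1, Psmb2, Psmb7, Psmc3, Psmd3, Psmd7 and Psmg2 had no window. The 4 stretches below are the 250 bases before the start, 5′ to 3′ on the strand of the gene. They show 2 cutting subunits, the inducible partner of one of them, and a chaperone gene that differed between mice in both directions. Capitals mark matches to 3 motifs searched on both strands: TGACNNNGC, the core of the antioxidant response element read by Nfe2l1 and Nfe2l2, CCAAT, the NF-Y box, and CCGGAAG, an Ets core.
Psmb5 (chr14:54617996-54618245, minus strand): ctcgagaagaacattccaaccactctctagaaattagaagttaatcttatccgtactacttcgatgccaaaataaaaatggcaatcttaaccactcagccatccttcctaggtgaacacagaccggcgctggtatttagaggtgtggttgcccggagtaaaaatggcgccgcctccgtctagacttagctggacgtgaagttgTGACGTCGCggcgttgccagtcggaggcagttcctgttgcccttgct
Psmb6 (chr11:70525107-70525356, plus strand): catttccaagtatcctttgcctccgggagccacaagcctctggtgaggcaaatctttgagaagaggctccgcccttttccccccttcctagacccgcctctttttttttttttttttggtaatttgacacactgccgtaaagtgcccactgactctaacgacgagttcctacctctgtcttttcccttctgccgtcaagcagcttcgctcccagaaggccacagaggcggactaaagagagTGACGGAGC
Psmb9 (chr17:34187331-34187580, minus strand): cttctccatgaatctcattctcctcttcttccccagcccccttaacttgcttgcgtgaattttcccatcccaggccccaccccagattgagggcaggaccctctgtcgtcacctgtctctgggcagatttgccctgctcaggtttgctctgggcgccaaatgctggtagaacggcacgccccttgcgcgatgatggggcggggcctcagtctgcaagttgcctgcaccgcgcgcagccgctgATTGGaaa
Psmg1 (chr16:95990961-95991210, minus strand): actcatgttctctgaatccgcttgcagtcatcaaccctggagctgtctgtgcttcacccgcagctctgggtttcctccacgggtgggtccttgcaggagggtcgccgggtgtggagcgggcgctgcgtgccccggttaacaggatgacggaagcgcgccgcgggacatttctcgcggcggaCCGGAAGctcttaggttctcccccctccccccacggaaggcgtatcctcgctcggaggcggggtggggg

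Psmb5 and Psmb6 each held 1 match to TGACNNNGC, starting 47 and 9 bases before the gene's start. Psmb9 held a match to CCAAT on the opposite strand, and Psmg1 a match to CCGGAAG that began 69 bases before its start. Over the full windows of the members, 5 of 34 (14.7%) held TGACNNNGC, beside 12.4% of all 32851 windows in the table and 14.3% of those of tested genes. CCAAT was in 12 of the 34 (35.3%), beside 37.4% and 37.4%. CCGGAAG was in 14 of the 34 (41.2%), beside 8.86% of all windows and 18.3% of those of tested genes. It was in 4 of 6 windows of lid genes and 4 of 6 of ATPase genes, in 1 of 8 of alpha ring genes, and in 0 of 2 of cutting and 0 of 2 of other beta subunit genes. No matches of different motifs overlapped in the members' windows. The match is a description of the letters and not of a bound site.

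Of the 22690 deposited probe sets, the platform annotation gave 20380 a single symbol, and 8003 genes passed the level filter. Markers of CD8 T cells were bright: 7 of the 7 on the array passed the filter, and their mean lay between 12.25 and 12.37 on all 8 arrays. Markers of tumour cells were present at lower levels, with 13 of 18 above the filter and a log2 summed level of 11.88 to 13.18 with PD-L1-overexpressing and 11.75 to 13.11 with PD-L1-depleted targets. Their mean was higher with PD-L1-overexpressing targets by 0.79, 0.67 and 0.68 in mice A, C and D, and lower by 1.03 in mouse B (difference -1.03). Mouse B therefore stood apart. Whether the labels of its 2 arrays are exchanged cannot be told from the files, and an exchange would turn the sign of every difference between targets in mouse B. For the members, counts and medians between targets, and the genes whose 95% intervals leave out 0, are therefore given with and without mouse B. Of the markers of other cells, 4 of 9 for B cells, 2 of 10 for macrophages and dendritic cells, 2 of 4 for CD4 T cells, 0 of 2 for NK cells and 0 of 4 for red cells and platelets passed the filter. In such bulk samples, fewer cells of a type and less RNA per cell cannot be told apart.

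The first comparison asked whether contact with targets rich or poor in PD-L1 left a different level of proteasome RNA in the T cells. No difference was called for any member. By limma's moderated test with the mouse as a block and Benjamini-Hochberg adjustment, 0 of 39 members passed the adjusted threshold of 0.05, beside 0 of all 8003 genes (0%), and the lowest adjusted p was 0.9995. Fitted differences, written as overexpressing minus depleted on the log2 scale, ran from -0.043 (SE 0.044) for Psmd5 to 0.084 (SE 0.037) for Psmd10. The precision was high for these bright genes: the widest 95% bound of any member was 0.167, or 1.12-fold. All 39 intervals lay inside 1.2-fold in both directions, as did those of 94.1% of all tested genes. The median SE was 0.030 for the members and 0.045 for all genes. Without mouse B the widest 95% bound of a member was -0.199, for Psmc3ip, also inside 1.2-fold.

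**Figure D1:**
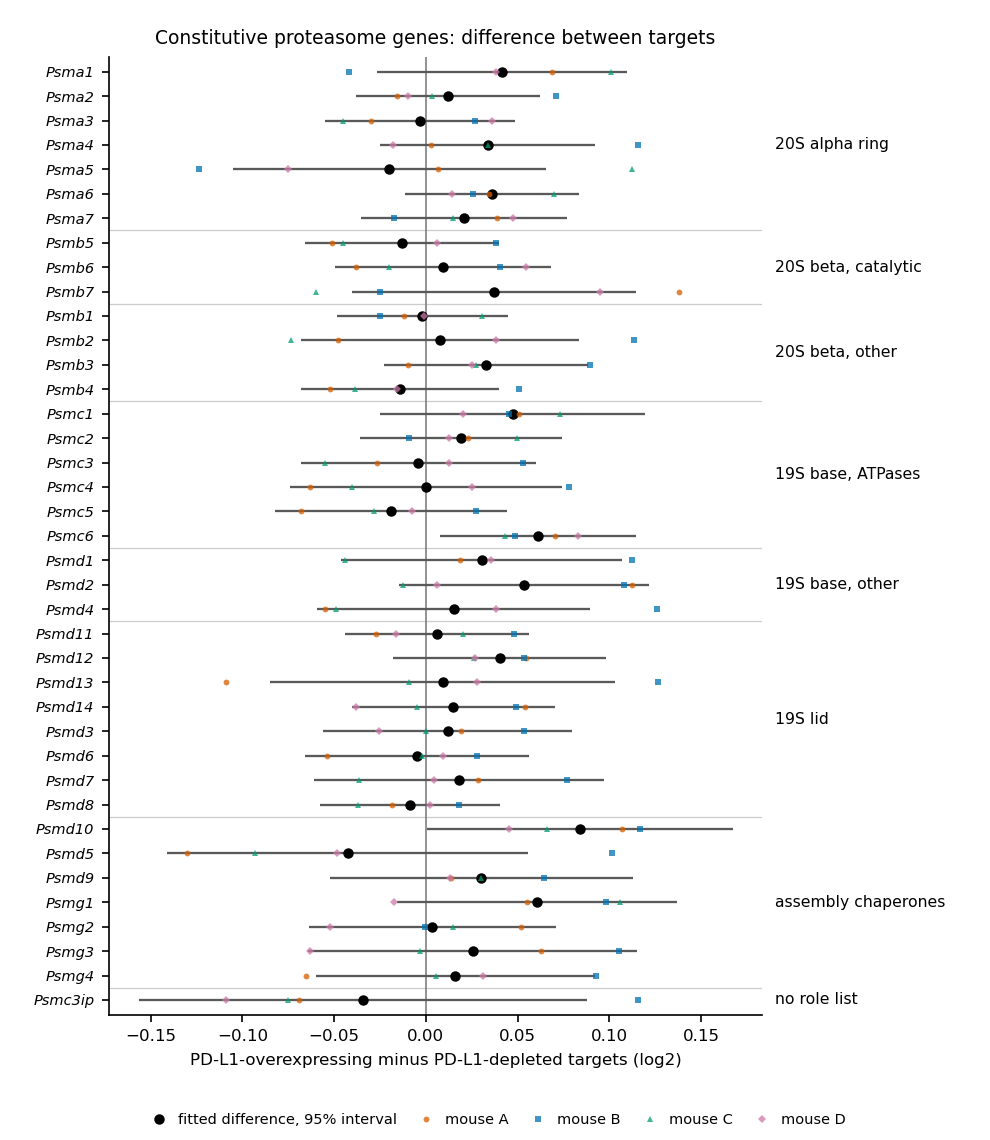
Difference between targets for the 39 tested members, in log2 units (x axis), by role (y axis). Black points are fitted differences with 95% intervals and coloured points are the 4 mice. All intervals lie between -0.157 and 0.167, and those of Psmc6 and Psmd10 leave out 0.

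Psmc6, an ATPase of the base, was the member with the smallest p. It read 11.91, 11.85, 11.85 and 11.88 in mice A to D with PD-L1-overexpressing targets, and 11.84, 11.80, 11.81 and 11.80 with PD-L1-depleted targets. The 2 groups of arrays did not overlap, and each mouse was higher with PD-L1-overexpressing targets. The means were 11.87 ± 0.026 and 11.81 ± 0.017 (SD, n = 4 each), a difference of 0.061 (SE 0.024, 95% interval 0.0076 to 0.115) that missed the threshold (limma adjusted p = 0.9995). The other probe sets of Psmc6 above the filter differed by -0.049 and 0.039.

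Psmd10, the chaperone of base assembly also known as gankyrin, showed the same pattern. It read 9.37, 9.42, 9.35 and 9.36 with PD-L1-overexpressing targets and 9.26, 9.31, 9.29 and 9.32 with PD-L1-depleted targets. Its groups did not overlap either, and the difference of 0.084 (SE 0.037, 95% interval 0.00056 to 0.167) also missed the threshold (limma adjusted p = 0.9995). At an unadjusted p under 0.05 these 2 members passed (5.13%), beside 228 of all genes (2.85%). Groups of arrays by target were separate for the same 2 members (5.13%), beside 36 of all genes (0.45%).

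The direction of the small differences was the same in 4 of 4 mice for 6 members (15.4%), beside 842 of all genes (10.5%). All 6 were higher with PD-L1-overexpressing targets: Psma6, Psmc1, Psmc6, Psmd12, Psmd9 and Psmd10. Over all members, 28 of 39 fitted differences were above 0 (71.8%), beside 53.4% of all genes, and the median was 0.015, beside 0.0033. That split moved with the scaling, to 82.1% above 0 with arrays centred on their medians and to 64.1% with quantile normalisation. It also rested on mouse B, in which 32 of the 39 members were higher with PD-L1-overexpressing targets, against 20, 18 and 25 in mice A, C and D. Of all genes 61.3% were higher in mouse B, against 50.5%, 39.8% and 53.1% in mice A, C and D. Within the mice, the median of the members was 0.0027 (A), 0.053 (B), -0.0023 (C) and 0.013 (D). The same medians over all genes were 0.0012, 0.028, -0.020 and 0.0049.

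Without mouse B, 19 of 39 members were above 0 (48.7%) and their median was -0.0011. In that fit 176 of all genes passed (2.2%) and 0 of 39 members did, with 3 members (7.69%) and 994 genes (12.4%) at an unadjusted p under 0.05. Direction was the same in 3 of 3 mice for 13 members (33.3%), beside 2636 genes (32.9%), and 4 of the 13 were lower with PD-L1-overexpressing targets. Groups of arrays were separate for 3 members (7.69%), Psmc6, Psmd10 and Psmd5, beside 575 genes (7.18%). The members whose intervals left out 0 were not the same as with all mice. Psmc6 differed by 0.065 (95% interval 0.0064 to 0.124, limma adjusted p = 0.333), whereas the interval of Psmd10, around 0.073, ran from -0.017 to 0.163 (limma adjusted p = 0.531). The alpha subunit Psma1 differed by 0.069 (95% interval 0.0063 to 0.132) and the chaperone Psmd5 by -0.091 (95% interval -0.173 to -0.0082), each at a limma adjusted p of 0.337. The mean of the 39 members differed between targets by 0.0017, 0.053, 0.0014 and 0.0064 in mice A to D. The tumour markers moved by 0.79, -1.03, 0.67 and 0.68 in the same mice. Their part in the members' differences was not tested.

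The cutting subunits showed how small these values are. Psmb5, the chymotrypsin-like site, averaged 12.60 ± 0.080 and 12.61 ± 0.097 (SD, n = 4 each), a difference of -0.013 (95% interval -0.066 to 0.040). Psmb6, the caspase-like site, differed by 0.0092 (95% interval -0.049 to 0.068) and Psmb7, the trypsin-like site, by 0.037 (95% interval -0.041 to 0.115). By role, the median difference was 0.021 for the alpha ring (5 of 7 above 0), 0.0092 for the cutting subunits (2 of 3), 0.0029 for the other beta subunits (2 of 4) and 0.0095 for the ATPases (4 of 6). It was 0.030 for the other subunits of the base (3 of 3), 0.010 for the lid (6 of 8) and 0.025 for the assembly chaperones (6 of 7). Without mouse B these medians were 0.015, -0.0012, -0.011, 0.0027, 0.0032, -0.0050 and 0.0047 in the same order of roles, and 2 of 8 lid members were above 0. No member of any role passed the test. Psmc3ip read 7.97 to 8.19 and differed by -0.034 (SE 0.054).

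The second comparison asked how far the 4 animals differed. Both arrays of an animal share its cells, so the yardstick here is the spread between cultures from the same mouse. Of the members' summed squares around each gene's mean, the mouse held 79.6%, the target 5.69% and the remainder 14.7%. Over all genes the shares were 74.6%, 4.97% and 20.5%. These shares are not scaled for there being more mice than targets, so noise alone would also give the mouse a larger share than the target. By limma's F test, fitted with the target as covariate, 12 of 39 members passed (30.8%), a share close to the 29.3% of all 8003 genes that did so. They were Psma5 and Psma6 of the alpha ring, Psmb2, Psmb3, Psmb4 and the cutting subunit Psmb5 of the beta rings, the ATPases Psmc2 and Psmc5, Psmd1 of the base, Psmd6 of the lid, and the chaperones Psmg1 and Psmg2. The distance from the lowest to the highest mouse was small: its median was 0.125 (1.09-fold) over the members and 0.186 over all genes. No member reached a distance of 0.5, a size that 445 of all genes (5.56%) passed.

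**Figure D2:**
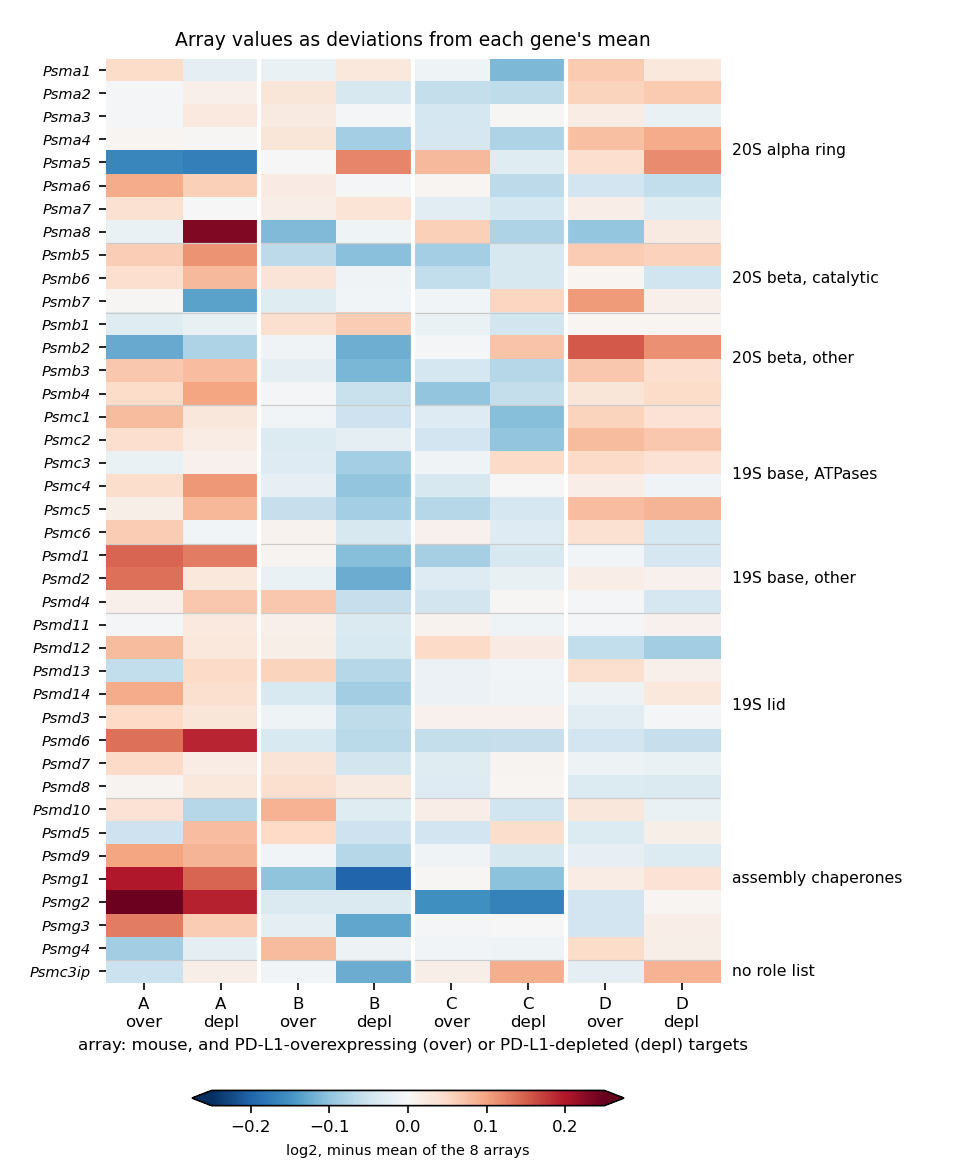
Each member's value on each array minus its mean over the 8 arrays, in log2 units (colour), with arrays by mouse and target (x axis) and members by role (y axis). For Psmg2 both arrays of A are above the mean (red) and both of C below it (blue); Psma8 was below the level filter.

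Mouse A was set apart most often, among the members and among all genes. Against the mean of the other mice, 12 of 39 members were called in A (30.8%), and so were 30.8% of all genes. Of the members 10 were higher in A, beside 18.1% of all genes, and 2 were lower, beside 12.7%. The median member was 0.045 higher in A, beside 0.022 for all genes. For 23 of 39 members mouse A had the highest mean (59.0%), beside 38.5% of all genes. Both arrays of A lay above the other 6 for 13 members (33.3%), beside 1788 of all genes (22.3%). The split of 10 higher and 2 lower became 8 and 2 with quantile normalisation and 13 and 2 with arrays centred on their medians. Markers of other lists also differed in A. The mean of the CD8 T cell markers was 12.28 and 12.25 in A and 12.34 to 12.37 on the other 6 arrays. Of the 7, 5 passed the F test, beside 29.3% of all genes. Among these 4 were lower in A, and 1, Cd2, was higher in A by 0.25 (SE 0.035, limma adjusted p = 0.000833). Mouse A had the lowest mean for 10 of 13 tumour markers and for 3 of 4 B cell markers above the filter. Their part in the higher members of A was not tested.

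The calls between mice depended on having mouse A among the arrays. Without it 0 of 39 members passed the F test, and the share of all genes fell to 7.2%. Not every call was of a difference in A. Psmc2 and Psmc5 were not called in A and kept distances of 0.146 and 0.153 between the other mice. Their limma F tests without A gave adjusted p of 0.0931 and 0.0850, with fewer arrays. Without mouse D 5 members passed (Psma5, Psmb5, Psmd6, Psmg1 and Psmg2; 12.8%), beside 20.3% of all genes. Without C 9 passed (23.1%), beside 23.5%, and without B 17 passed (43.6%), beside 44.4%. With eBayes run without a trend, 3 passed (7.69%; Psmd6, Psmg1 and Psmg2), beside 1652 genes (20.6%). With probe sets averaged per gene 8 passed (20.5%), beside 2234 of 7438 genes (30.0%).

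Mouse B had 0 members higher (6.3% of all genes were) and 2 lower, Psmb5 and Psmg1 (2.96% of all genes). Mouse C had 0 higher (3.09%) and 2 lower, Psmb4 and Psmg2 (5.35%). Mouse D had 1 higher, Psmb2 (4.56%), and 0 lower (4.09%). Mice B and C each held the lowest mean of 14 members (35.9%), beside 26.3% (B) and 27.0% (C) of all genes. The median member was lower than in the other mice by 0.037 in B (median -0.037) and by 0.029 in C (median -0.029), and higher by 0.0079 in D. Under quantile normalisation the median in C was 0.0025, and with arrays centred on their medians that in D was -0.020. These counts also moved with single animals. Without mouse B, 12 members were called in C (30.8%) and 8 in D (20.5%), beside 21% and 22.5% of all genes. Without mouse A, 0 were called in B, C or D, beside 6.83%, 4.35% and 2.11%.

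**Figure D3:**
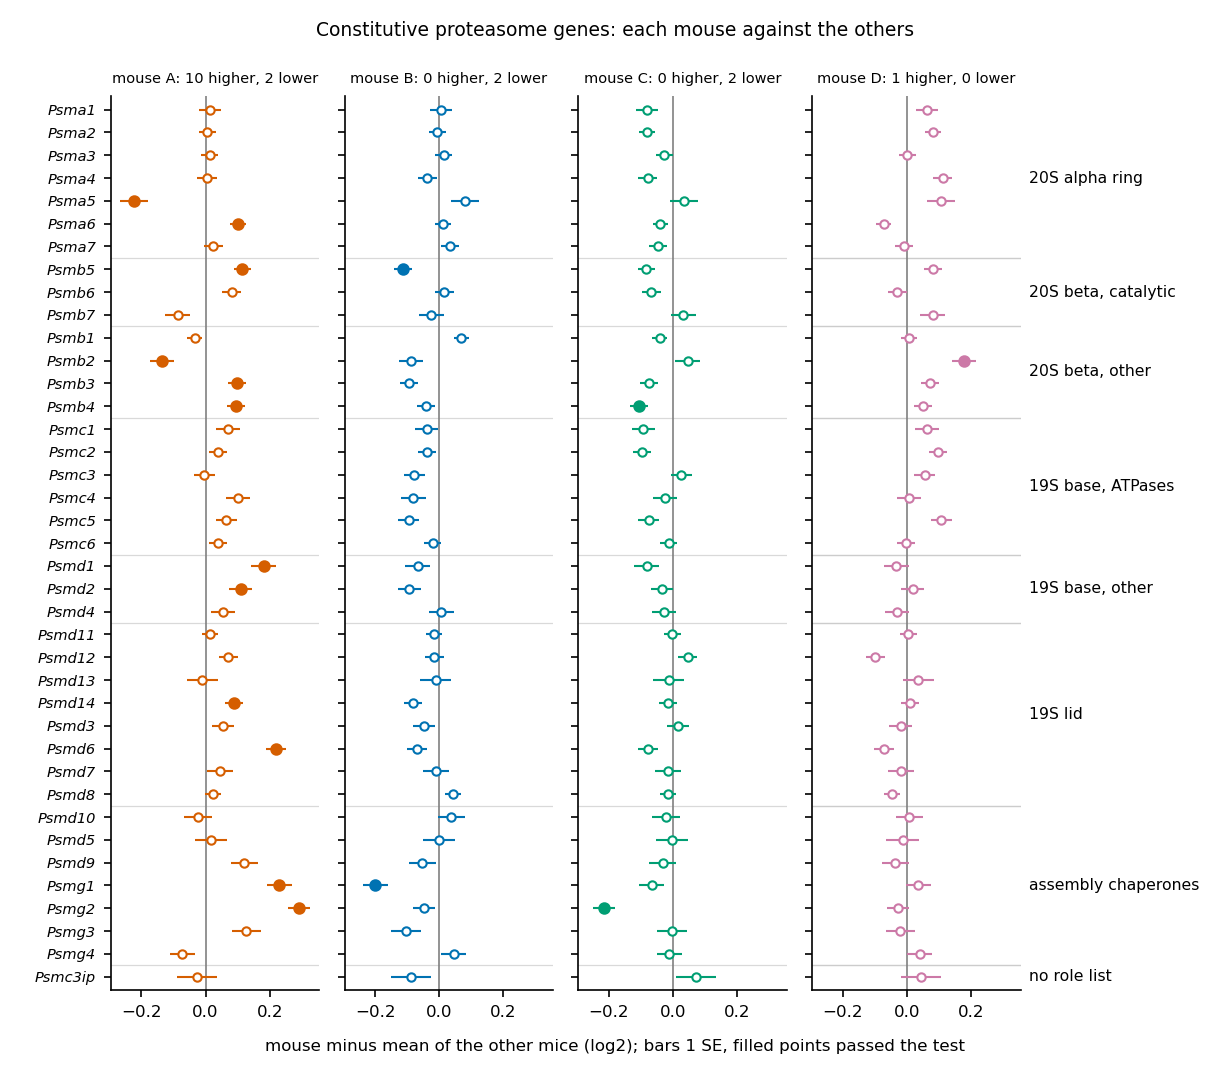
Each mouse minus the mean of the other mice in log2 units (x axis), for the 39 tested members by role (y axis), with bars of 1 SE. Filled points passed limma's adjusted threshold: 10 higher and 2 lower in A, 2 lower in B, 2 lower in C and 1 higher in D.

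The assembly chaperones held the widest distances between mice. Psmg2, which with Psmg1 forms a dimer that helps the alpha ring to close, read 11.20 and 11.15 in mouse A, the array with PD-L1-overexpressing targets first. The same pairs of arrays read 10.92 and 10.92 in B, 10.81 and 10.79 in C, and 10.91 and 10.96 in D. Both arrays of A were thus above, and both of C below, all others. The distance from C to A was 0.38, or 1.30-fold (limma F test, adjusted p = 0.00116). Psmg2 was higher in A than in the others by 0.29 (SE 0.034, limma adjusted p = 0.000314) and was lower in C (difference -0.22, SE 0.034, limma adjusted p = 0.00653). A second probe set of Psmg2 was also called by the F test over all probe sets and stood 0.23 higher in A.

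Psmg1, the partner in that dimer, was also highest in A but lowest in B. It read 10.67 and 10.61 in A, 10.37 and 10.27 in B, 10.47 and 10.36 in C, and 10.48 and 10.50 in D. The lowest mean, in B, and the highest, in A, were 0.32 apart, or 1.25-fold (limma F test, adjusted p = 0.00526). Psmg1 was higher in A by 0.23 (SE 0.039, limma adjusted p = 0.00234) and lower in B (difference -0.20, SE 0.039, limma adjusted p = 0.0145). The other chaperones did not pass the F test. Among them Psmg3 and Psmd9 had both arrays of A above the other 6, Psmg4 had both below, and Psmd5 had the smallest distance between mice of any member, 0.023.

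In the regulatory particle, mouse A was highest for 3 of 3 subunits of the base other than ATPases and for 6 of 8 of the lid. It was highest for 38.5% of all genes. Psmd6, a lid subunit, read 11.54 and 11.59 in A and between 11.33 and 11.36 on the other 6 arrays. It stood 0.22 higher in A (SE 0.031, limma adjusted p = 0.000893). This was not shared by its second probe set, whose arrays of A were 0.061 above the others and which did not pass the F test (limma adjusted p = 0.729 over all probe sets). Psmd1, a scaffold of the base, read 10.84 and 10.82 in A and 10.59 to 10.70 elsewhere, a difference of 0.18 (SE 0.039, limma adjusted p = 0.00775). Psmd2, the other scaffold, and Psmd14, the lid's deubiquitinase, were higher in A by 0.11 (SE 0.035) and 0.089 (SE 0.028) and passed in A (limma adjusted p = 0.0411 and 0.0407) but not by the F test over all mice.

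Of the ATPases, 3 of 6 were highest in A and 3 in D, beside 38.5% and 21.7% of all genes. Psmc2 and Psmc5 passed the F test, with mouse D highest. Psmc2 read 11.86 and 11.85 in D, above all other arrays, and 11.73 and 11.68 in C, below all others. Its second probe set was instead lowest in B (difference -0.15), with -0.027 in C. Over all probe sets the limma F test gave adjusted p of 0.0529 for the first and 0.0493 for the second. Psmc5 read 11.37 and 11.38 in D, 11.31 and 11.38 in A, 11.24 and 11.21 in B, and 11.22 and 11.25 in C. None of the 6 ATPases passed for a single mouse. Psmc6, which had the smallest p between targets, had nearly the same level in each mouse, with 0.045 between the lowest and highest means.

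In the alpha ring, 5 of 7 members were lowest in mouse C and 4 of 7 highest in D, beside 27.0% and 21.7% of all genes. The members not lowest in C, Psma5 and Psma6, were those that passed. Psma5 read 11.63 and 11.62 in A, below all 6 other arrays, which lay between 11.76 and 11.92, and was lower in A (difference -0.22, SE 0.044, limma adjusted p = 0.00501). Its second probe set had a difference of -0.12 in A and missed the F test threshold (limma adjusted p = 0.096 over all probe sets). Psma6 read 12.71 and 12.68 in A and 12.56 to 12.64 elsewhere, and was higher in A by 0.10 (SE 0.024, limma adjusted p = 0.0125). Its second probe set stood 0.073 higher in A and passed neither test (limma adjusted p = 0.0944 in A and 0.260 by the F test, over all probe sets). Psma1, Psma2, Psma3, Psma4 and Psma7 did not pass between mice; their distances from the lowest to the highest mouse were 0.108, 0.122, 0.031, 0.144 and 0.061.

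The beta subunits other than the cutting ones gave 3 calls by the F test among 4 genes, beside 29.3% of all genes. Psmb2 read 11.74 and 11.79 in A, 11.86 and 11.74 in B, 11.86 and 11.94 in C, and 12.02 and 11.98 in D. Both arrays of D were above all others. It was lower in A (difference -0.14, SE 0.039, limma adjusted p = 0.0270) and higher in D by 0.18 (SE 0.039, limma adjusted p = 0.0232). Psmb3 and Psmb4 ran the other way in A, 0.097 and 0.096 higher (SE 0.028 each, limma adjusted p = 0.0296 and 0.0277), and Psmb4 was lower in C (difference -0.11, SE 0.028, limma adjusted p = 0.0487). A second probe set of Psmb4 gave -0.070 in A, the opposite sign, and one of Psmb3 gave 0.042 (limma adjusted p = 0.358 over all probe sets). Psmb1 did not pass.

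Of the cutting subunits, 1 of 3 passed between mice, beside 29.3% of all genes. Psmb5 read 12.67 and 12.72 in A, 12.54 and 12.50 in B, 12.52 and 12.57 in C, and 12.67 and 12.67 in D. Mice A and D were the high pair and B and C the low pair, with 0.17 (1.13-fold) between A and B (limma F test, adjusted p = 0.00837). Psmb6 read 12.02 and 12.05 in A, 12.01 and 11.97 in B, 11.91 and 11.93 in C, and 11.98 and 11.92 in D. Its arrays of A were above the others, by a distance too small for the F test (limma adjusted p = 0.138). Psmb7 read 12.36 and 12.22 in A, 12.33 and 12.35 in B, 12.35 and 12.41 in C, and 12.47 and 12.37 in D, so the arrays of a mouse spread about as widely as the mice (limma F test, adjusted p = 0.216).

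The inducible subunits that take the places of these 3 followed another order. Psmb9 read 12.23 and 12.25 in A, 12.72 and 12.67 in B, 12.39 and 12.39 in C, and 12.75 and 12.71 in D. Mice B and D were high, C and A low, with 0.49 (1.41-fold) between A and D (limma F test, adjusted p = 1.68e-05). Psmb10 ranked the mice B, D, A and C, with 0.29 (1.22-fold) between B and C (limma F test, adjusted p = 0.00537). Psmb8, at 13.35 to 13.47, did not pass (limma F test, adjusted p = 0.158). None of the 3 passed between targets, with differences of 0.0018, 0.023 and 0.0032 for Psmb8, Psmb9 and Psmb10.

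The change of each inducible subunit was also set against that of the constitutive subunit it replaces, as the difference of their log2 values within an array, each centred on its mean. Probe sets of different genes have no common scale, so only the movement of this difference between arrays is read. For Psmb9 over Psmb6 it stood at -0.32 and -0.35 in A, 0.17 and 0.16 in B, -0.061 and -0.087 in C, and 0.24 and 0.24 in D. The 2 genes moved unequally between mice, by 0.57 (1.49-fold) from A to D (limma F test, adjusted p = 0.00165). Mouse A was below the others (difference -0.45, SE 0.035, limma adjusted p = 0.000569), while D was above them by 0.32 (SE 0.035, limma adjusted p = 0.00797) and B by 0.23 (SE 0.035, limma adjusted p = 0.0224). Without mouse A the F test gave a limma adjusted p of 0.0795, the highest of 0.000761 to 0.0795 over the alternatives.

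For Psmb8 over Psmb5 the mice spanned 0.20 (limma F test, adjusted p = 0.0596), and for Psmb10 over Psmb7 0.33 (limma F test, adjusted p = 0.0684). Both missed the threshold; the first was inside it under quantile normalisation, a filter at the median and the mean of probe sets, with adjusted p from 0.0417 to 0.298 over the alternatives. Between targets the 3 differences were 0.015, 0.014 and -0.034 (SE 0.030, 0.030 and 0.051), each at a limma adjusted p of 0.9997. The mean of 9 markers of B cells was, as for Psmb9, higher in B and D than in C and A. It was 8.45 and 8.39 in B, 8.23 and 8.34 in D, 7.93 and 7.98 in C, and 7.77 and 7.85 in A. Of these markers H2-Aa and H2-Ab1, genes of MHC class II, Cd74 and Ighm were above the filter, while Cd79a, Cd79b, Ms4a1, Blk and Pax5 were not. The 4 above the filter did not move alike. Their distances between mice had a median of 0.83 and reached 3.40, and 1 of the 4 was higher in A than in the other mice. The part of the B cell markers in the order of the mice was not tested.

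**Figure D4:**
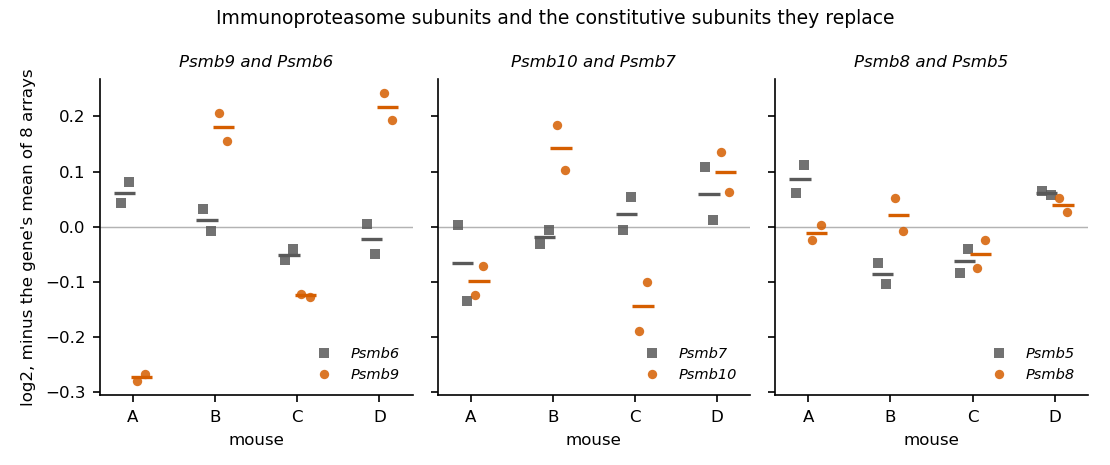
Values of the inducible subunits (circles) and of the constitutive subunits they replace (squares) on each array, minus the gene's mean over 8 arrays in log2 units (y axis), by mouse (x axis), with lines at the means of a mouse. Psmb9 is lowest in A, where Psmb6 is highest.

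Other genes that work with the proteasome were read from related lists. With all mice in the fit, none of their tested genes passed between targets, and 0 of all 8003 genes did. Differences ran from -0.110 to 0.116. Whether any of them passed without mouse B is not given here. Between mice, 2 of 4 activators and inhibitors passed the F test, 3 of 10 maturation and associated factors, 2 of 7 ubiquitin shuttle genes and 2 of 10 regulators of proteasome genes, beside the 29.3% of all genes. Psme1, a subunit of the activator that interferon gamma induces, read 13.04 and 12.95 in A, 13.23 and 13.28 in B, 13.08 and 13.07 in C, and 13.20 and 13.18 in D. It was lower in A (difference -0.18, SE 0.028, limma adjusted p = 0.00164) and higher in B by 0.17 (SE 0.028, limma adjusted p = 0.00758). Psme3, the nuclear activator, went the other way in A, higher by 0.18 (SE 0.050, limma adjusted p = 0.0213). Psme2 shares its probe set with Psme2b and was not named.

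Among the associated factors, Akirin2, which brings proteasomes into the nucleus, was higher in A by 0.18 (SE 0.037, limma adjusted p = 0.00696). Zfand5, which stimulates the proteasome, was lower in A (difference -0.14, SE 0.039, limma adjusted p = 0.0266) and higher in B by 0.29 (SE 0.039, limma adjusted p = 0.00239). Pomp, the maturation factor of the core, also passed the F test (limma adjusted p = 0.0437) and was named after its values were seen. The shuttle genes Ubqln1 and Ubqln4, whose products carry ubiquitinated proteins to the proteasome, were higher in A by 0.32 (SE 0.033, limma adjusted p = 0.000121) and 0.31 (SE 0.069, limma adjusted p = 0.00934). Ubqln1 was also lower in C (difference -0.15, SE 0.033, limma adjusted p = 0.0279) and in D (difference -0.18, SE 0.033, limma adjusted p = 0.00914). Of the regulators, Nfyb, a subunit of NF-Y, and the transcription factor Stat3 were higher in A by 0.13 (SE 0.040) and 0.089 (SE 0.029), at limma adjusted p of 0.0393 and 0.0413. The larger difference of Stat3 was in D, where it was lower (difference -0.17, SE 0.029, limma adjusted p = 0.00727) and both arrays lay below all others.

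Nfe2l1 and Nfe2l2 were named after their values were seen. Nfe2l1, the factor that raises proteasome genes when the proteasome is blocked, did not pass between targets (difference 0.0097) or mice (limma F test, adjusted p = 0.226). Nfe2l2 had the widest difference between targets of these lists, 0.116, which also missed the threshold (limma adjusted p = 0.9995). Within the mice it differed by 0.39 (A), -0.37 (B), 0.23 (C) and 0.21 (D), so the fitted value averages opposite signs. Its fit without mouse B is not given here. Of the members whose window held TGACNNNGC, 1 of 5 passed the F test, beside 9 of 27 without the motif. With CCAAT 3 of 12 passed and without it 7 of 20, and with CCGGAAG 4 of 13 and without it 6 of 19. The median difference in mouse A was 0.070 for the 13 with CCGGAAG and 0.024 for the 19 without. It was 0.082 with TGACNNNGC and 0.040 without, and 0.032 with CCAAT and 0.076 without. All are described without a test.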

How the data were processed

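RNA of 8 samples was labelled with biotin and measured on a 3′ expression array, 1 array per sample, per the labels' protocols. The authors deposited 1 log2 value per probe set and array, from 3.60 to 15.24; their range showed the log2 scale, and the summarisation, normalisation and build are not given in the sources used here. Sorted values of the arrays lay within 0.167 at equal rank, so a shift shared by most genes could be hidden. The number of arrays limits the precision.

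Probe sets with several symbols (691) or none (1555) and 64 controls named no gene, and genes averaging less than 6.87 (40th percentile of probe set means) stayed untested. The fits used lmFit and trended eBayes of limma 3.58.1 (R 4.3.3). Tests were two-sided at 0.05 after Benjamini-Hochberg adjustment over 8003 genes. In the target comparison the mouse was a block. The design text divides each mouse's cells between targets and the titles name the mouse; deviations of its 2 arrays from the group means correlated across genes at 0.82 (A), 0.16 (B), 0.61 (C) and 0.64 (D). Mice were compared by the moderated F test, and each against the mean of the others, with the target as covariate.

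Members and lists were chosen with earlier results of these data known. Named in full were the cutting subunits, per role the 2 genes with the smallest p between targets and between mice, the inducible subunits, Psme1 and, per related list, the 2 with the smallest p between mice. The 3 subunit pairs were added after the data were examined and fitted without a trend over 8006 rows. Psmb11 was not analysed here. The trended fits between targets, with the mouse as a block, and between mice were also run on simulated data. The untrended fits of the subunit pairs and the alternatives listed next were not. Alternatives were median centring, quantile normalisation, no block or a random block, other filters, averaged probe sets, other variance models and leaving out each mouse. The table held 0 columns of other samples.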

Additional observations from a re-analysis of the deposited data

Results flagged for a closer look

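The 4 arrays of each target were compared for 33 genes named in full, the mean of the tested members and the 3 subunit pairs, which gave 74 groups of values. Of these, 2 held an array far from the other 3. For independent groups not picked by their values, chance would give about 3.7, or 1 group in 20. Genes were named partly for small p between mice, and both targets share the mice, so that rate is only nominal here. Both groups with such an array were of Psmd6, the lid subunit. With PD-L1-overexpressing targets the array of mouse A was the highest, and its gap to the next array made up 0.8943 of the range of the group. With PD-L1-depleted targets it was again mouse A, at 0.9624 of the range. Without mouse A the F test between mice no longer called Psmd6, and its second probe set was not called with mouse A either.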

How the results depend on the processing

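The count of 0 members called between targets was the same under every alternative run. Without the mouse as a block (no pairing), 0 members and 0 genes passed and the median member difference was 0.0149, and with the mouse as a random block the counts were also 0. Leaving out each mouse gave 0 to 176 genes between targets, the 176 without mouse B. Between mice, 0 to 17 members and 576 to 3555 genes were called when a mouse was left out, and 3 members with eBayes without a trend. Members called in mouse A fell to 5 without a trend, and their median to 0.022 with averaged probe sets. In mouse B the count was 1 without a trend and 0 to 3 with a mouse left out; the median was -0.061 under quantile normalisation, -0.011 with median centring, -0.016 with the mean of probe sets and -0.049 to -0.010 with a mouse left out. In mouse C the count was 1 under quantile normalisation, with no filter, with the mean of probe sets and without a trend, and 0 to 12 with a mouse left out; the median under quantile normalisation was 0.0025. In mouse D the count was 3 with median centring, 2 with a filter at the median or robust variances, 0 without a trend and 0 to 8 with a mouse left out. Its median was -0.020 with median centring and 0.0013 to 0.037 with a mouse left out.

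Small differences between targets that were not called changed sign in 26 of 429 refits of named genes. With averaged probe sets Psma1 became -0.032, Psmb4 0.025, Psmd6 0.033, Psme3 0.0013 and Akirin2 -0.032. Quantile normalisation gave -0.0011 for Psmb6, -0.010 for Psmg2, -0.0068 for Psmb10 and -0.0089 for Psmb8, and median centring 0.0034 for Psmd6 and 0.0012 for Stat3. With a mouse left out the ranges were -0.064 to 0.015 for Psma5, -0.0059 to 0.025 for Psmb6, -0.028 to 0.035 for Psmb2, -0.016 to 0.012 for Psmd6, -0.013 to 0.022 for Psmg2, -0.023 to 0.034 for Psmb10, -0.017 to 0.019 for Psmb8, -0.0037 to 0.044 for Psme1, -0.064 to 0.011 for Psme3 and -0.023 to 0.013 for Stat3. Of 396 refits of the F test for named genes and pairs, 60 took a result out of the threshold and 9 brought one inside. The cause of these moves was not tested. Leaving out a mouse also leaves fewer arrays, and the part of that number was not tested either.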
